A study of Mus musculus with 3 samples.

Results

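The genes described here encode the molecules by which blood cells hold on to matrix and to other cells: integrin chains, junction proteins, immunoglobulin-like and mucin-like adhesion molecules, and the adaptors that tie integrins to actin. The 42 genes were taken by name from a fixed list and all 42 had a row among the 23393 named genes of the table. The list holds 14 integrin alpha chains, 7 beta chains, 7 junction molecules, 6 other cell adhesion molecules and 8 focal adhesion adaptors. It leaves out the platelet integrin pair, Itga2b and Itgb3. RNA came from bone marrow of C57BL/6 mice and was measured by RNA sequencing in 3 sorted populations, with 1 library each. All 3 were LSK cells, which are lineage-negative and carry Sca-1 and c-Kit. The gate CD48- CD150+ took hematopoietic stem cells (HSCs), and the reporter Map17-GFP split them into the GFP- and GFP+ fractions. The gate CD48+ CD150- took multipotent progenitors (MPPs), which lie downstream of HSCs, and here only Map17-GFP- ones. The sources used here do not give the age of the mice, the number of animals pooled or how the reporter was built.

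An integrin is a pair of 1 alpha and 1 beta chain. Talins and kindlins bind the tail of the beta chain and switch the pair to the state that grips its ligand, and vinculin and tensins strengthen the link to actin. In marrow, integrins that contain the Itgb1 chain bind fibronectin, laminins and the endothelial and stromal molecule encoded by Vcam1, and they are known for holding stem and progenitor cells in their niche. Integrins with the Itgb2 chain are the leucocyte integrins, whose ligands include the products of Icam1 and Icam2. Junctional adhesion molecules (JAMs) are immunoglobulin-like proteins of cell contacts, and JAM-B and JAM-C, encoded by Jam2 and Jam3, bind each other.

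The values are the authors' normalized counts, called levels, and they are given in the order MPP, GFP- HSC and GFP+ HSC. A gene with a mean of at least 50 over the 3 libraries was compared by the log2 ratio of (level + 5), which understates differences of low genes, and was counted where it lay at least 2-fold apart. A gene under 50 in MPPs could pass this minimum mean through the HSC libraries alone, or the reverse. The filter then largely fixed its direction in the comparisons with MPPs, which limits the counts of every list. A fold named for a single gene is a plain ratio of its levels. Each population has 1 library, so no replicate spread, test or p-value could be given, and a fold describes these libraries only. The depth in reads is unknown. The 2 comparisons with MPPs share the MPP library, and the GFP- library enters 2 of the 3 comparisons. In these bulk libraries fewer cells of a type and less RNA per cell cannot be told apart.

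The sort genes followed their gates. Slamf1, which encodes CD150, had levels of 17, 2144 and 2219, and Cd48 had 7744, 168 and 64. Pdzk1ip1, the gene of Map17, had 290, 3673 and 5659, so its transcript was high in both HSC fractions. Kit (23579, 42967 and 47772) and Ly6a (1767, 2184 and 2702), which encode c-Kit and Sca-1, were present in all 3. The libraries also differed in the female-specific transcript Xist, at 2262, 6137 and 3087. Transcripts of Y chromosome genes were present in each too, such as Ddx3y (2490, 2475 and 3251) and Eif2s3y (1370, 1404 and 1712). Each library thus held both female-specific and male-specific transcripts. The part of the Xist difference in the results was not tested, and 0 of the 42 genes lie on the X chromosome.

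Promoter sequence from RefSeq (GRCm38.p6) matched 26 of the 42 genes. The 250 bases before the listed start are printed for 4 of them, a pair higher in HSCs and a pair higher in MPPs, to set side by side upstream regions of genes that went opposite ways. Tenc1, now called Tns2, encodes a tensin (chr15:102102684-102102933, plus strand, before a start inside the gene), and Itga5 encodes the fibronectin receptor's alpha chain (chr15:103366792-103367041, minus strand). Itgb5 encodes a beta chain of vitronectin receptors (chr16:33829415-33829664, plus strand), and Itgam encodes CD11b (chr7:128062390-128062639, plus strand). Each reads 5′ to 3′ on the gene's strand, and capitals mark matches to 1 of 6 short motifs described after the sequences.
Tenc1: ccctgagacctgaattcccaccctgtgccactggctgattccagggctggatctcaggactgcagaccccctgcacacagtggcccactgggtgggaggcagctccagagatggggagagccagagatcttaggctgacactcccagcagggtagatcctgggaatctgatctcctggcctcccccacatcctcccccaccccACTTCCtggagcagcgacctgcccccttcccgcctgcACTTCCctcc
Itga5: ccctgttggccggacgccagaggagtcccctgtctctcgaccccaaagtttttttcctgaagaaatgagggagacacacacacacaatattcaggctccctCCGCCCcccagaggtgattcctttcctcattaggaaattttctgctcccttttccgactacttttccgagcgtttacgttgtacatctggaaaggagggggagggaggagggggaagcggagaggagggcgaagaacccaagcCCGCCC
Itgb5: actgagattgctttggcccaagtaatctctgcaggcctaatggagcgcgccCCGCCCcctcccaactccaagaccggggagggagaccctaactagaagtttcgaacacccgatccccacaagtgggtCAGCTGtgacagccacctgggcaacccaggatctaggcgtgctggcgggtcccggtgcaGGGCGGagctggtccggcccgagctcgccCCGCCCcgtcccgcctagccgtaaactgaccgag
Itgam: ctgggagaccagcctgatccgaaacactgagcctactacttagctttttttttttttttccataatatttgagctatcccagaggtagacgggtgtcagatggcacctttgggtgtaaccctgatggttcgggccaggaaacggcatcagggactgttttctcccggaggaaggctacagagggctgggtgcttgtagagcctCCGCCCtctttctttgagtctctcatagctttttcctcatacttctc

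The motifs were searched as exact letters on both strands: AGATAA for GATA factors, TGTGGT for RUNX factors, GGAAGT for ETS factors, CAGCTG as an E-box, GGGCGG as a GC box and TATAAA as a TATA box. None of the 6 overlaps another in the stretches printed. Tenc1 held 2 ETS matches and no other, and 2 CpG pairs. The ETS letters occurred in 19.7% of 32851 promoter windows of the same length. Itga5 held 2 GC boxes, Itgb5 held 3 GC boxes and 1 E-box, and Itgam held 1 GC box, against 32.7% of all windows with a GC box and 13% with the E-box. Itgb5 and Itga5 were the richer in CpG, with 18 and 11 pairs, beside 6 in Itgam and a median of 6 over all windows. No GATA, RUNX or TATA match lay in these 4 windows, and over all windows the shares were 9.99%, 14% and 12.4%. A match describes letters in these windows and does not show a bound site.

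Of the 42 genes, 32 had a mean of at least 50. The 3 alpha chain genes Itga7, Itga8 and Itgae, the beta chain genes Itgb6 and Itgb8, the cadherin genes Cdh1, Cdh2 and Cdh5, the talin gene Tln2 and the kindlin gene Fermt2 lay below it. The genes nearest to that minimum were Itgae, with a mean of 42.3, and Fermt2, with 37.3, just under it, and Itga1, with 60.7, and Itgax, with 65, just over it.

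**Figure D1:**
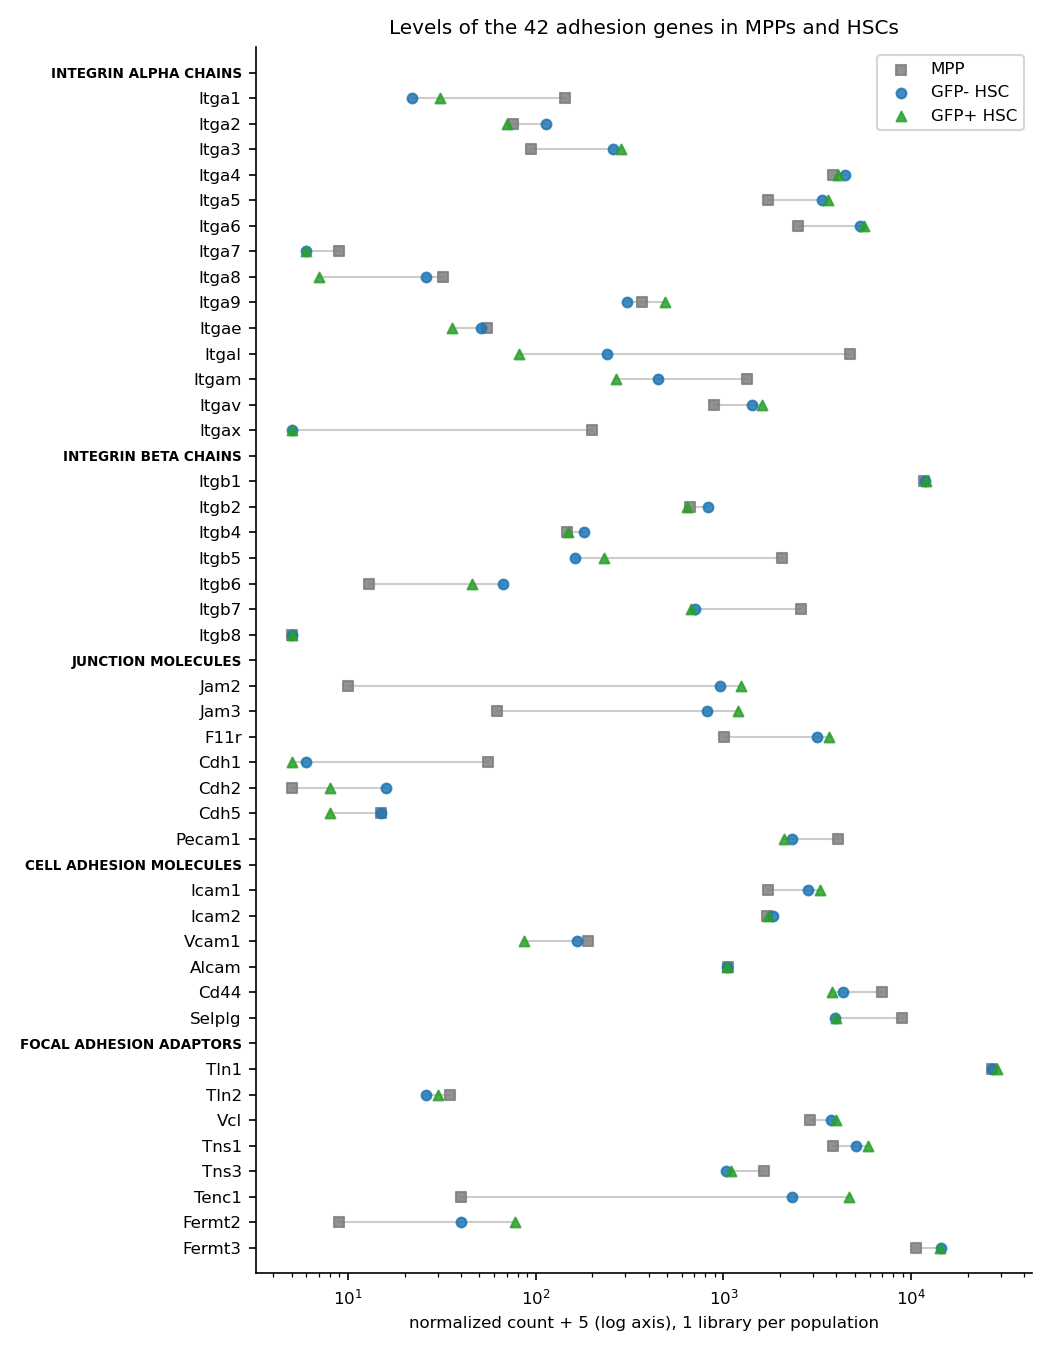
Level of each of the 42 adhesion genes in the MPP, GFP- HSC and GFP+ HSC libraries, as normalized count + 5 on a log axis, grouped by role. Points are single libraries and grey lines span the 3 values of a gene; the widest spans are those of Jam2 (5 to 1231), Tenc1 (35 to 4632) and Itgal (4691 to 76).

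HSCs and MPPs carried different integrin alpha chain transcripts. Against MPPs, the GFP- fraction had 2 of the 11 alpha chain genes past the minimum higher by 2-fold or more and 4 lower by as much. The GFP+ fraction had 3 higher and 4 lower. Among all 11951 genes past the minimum the shares were 11.6% higher and 5.53% lower for the GFP- fraction, and 13.7% and 8.61% for the GFP+ fraction. The laminin-binding chain genes Itga3 and Itga6 were higher in both fractions, and Itga5 in the GFP+ fraction alone. Lower in both were Itgal, Itgam, Itgax and Itga1. Itgax and Itga1 had 50 or more only in MPPs and so entered through the library where they were high, which fixed their direction. The counts are therefore a description of the genes that passed.

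Itga6 (chromosome 2, 71786886 to 71858427; coordinates are those of GRCm38.p6) encodes CD49f, a laminin-binding chain. It had levels of 2490, 5320 and 5613, which is 2.14-fold and 2.25-fold above MPPs. Itga3, another laminin-binding chain, had 89, 253 and 278, or 2.84-fold and 3.12-fold above MPPs. Both HSC libraries were therefore above the MPP library for these 2 chains, and within 1.10-fold of each other. Itga5, whose product binds fibronectin (chromosome 15, 103344286 to 103366791), had 1729, 3325 and 3621, at 1.92-fold and 2.09-fold, so that it passed 2-fold for GFP+ HSCs and came just short for GFP- HSCs. Itgav, whose product binds vitronectin and other matrix proteins, had 890, 1410 and 1601, and did not reach 2-fold. Itga4, whose product binds fibronectin and the Vcam1 protein, was much alike in the 3 libraries, at 3820, 4446 and 4080. Itga4 shares 1124 of its 13978 exon bases with Cerkl on the opposite strand, which had 200, 232 and 223.

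The leucocyte integrin chains ran the other way. Itgal, which encodes CD11a (chromosome 7, 127296139 to 127335137), had 4691, 234 and 76. Against MPPs it was 20.05-fold lower in the GFP- and 61.7-fold lower in the GFP+ fraction. Itgam (chromosome 7, 128062640 to 128118491), a chain of myeloid cells, had 1332, 444 and 263, or 3.0-fold and 5.06-fold lower. A further gene model on its strand shares 3450 of its 5024 exon bases, so its counts are less certain. Its neighbour Itgax, which encodes CD11c of dendritic cells, had 195 in MPPs and was listed at 0 in both HSC libraries. The MPP library was the highest of the 3 for all of these chains. Itga1, a collagen-binding chain, had 139, 17 and 26, and was likewise highest in MPPs. Itga2, also a collagen-binding chain, had 71, 109 and 65, and Itga9, whose product binds tenascin and the Vcam1 protein, had 363, 301 and 485. Both differed from MPPs by less than 2-fold. Of the 3 alpha chains under the minimum, Itgae, a chain of mucosal T cells, had 50, 46 and 31, Itga8 had 27, 21 and 2, and Itga7 had at most 4.

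Some lists of mature cell markers were higher in the MPP library and others were not. The 13 monocyte and macrophage genes, of which Vcam1 is also an adhesion gene here, summed to 7493, 777 and 656. Ly6c2 had the highest mean, at 3632, 154 and 190, and Cd68 was above it in both HSC libraries, at 202 and 200. All 13 were above 0 in MPPs and in GFP- HSCs, and 12 in GFP+ HSCs. The 9 dendritic cell genes, which include Itgax, summed to 23104, 2892 and 2525. Of these sums Flt3, which progenitors also express, made up 19467, 1253 and 829. Of the 8 dendritic genes past the minimum, 5 were 2-fold or more below MPPs in each HSC fraction, and Clec9a (38, 107 and 130) and Zbtb46 (57, 136 and 203) were as far above. Among all genes, 5.53% lay below and 11.6% above MPPs in the GFP- fraction, and 8.61% and 13.7% in the GFP+ fraction. The 9 mast cell and basophil genes summed to 1340, 133 and 45. Cpa3 had their highest mean and Mcpt8 their highest level in MPPs, at 461 and 530 there, and Mcpt4 was listed at 0 in all 3 libraries. The 10 neutrophil genes summed to 862, 837 and 1757, highest in GFP+ HSCs. The part of such cells in the levels of Itgal, Itgam and Itgax was not tested.

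Beta chains set which pairs can form. Of the 5 beta chain genes past the minimum, 0 were 2-fold or more above MPPs in either HSC fraction and 2 were as far below. Over all genes, 11.6% lay above and 5.53% below in the GFP- fraction, and 13.7% and 8.61% in the GFP+ fraction. Itgb1, the partner of most matrix-binding alpha chains, had 11659, 11851 and 11957 and was thus level within 1.03-fold. Itgb5 (chromosome 16, 33829665 to 33949338), which pairs with the Itgav chain, had 2035, 156 and 227. It was 13.04-fold and 8.96-fold lower in the HSC fractions, whereas its partner gene Itgav was 1.58-fold and 1.80-fold higher. The platelet beta chain gene Itgb3, left out of the list and of these counts, was higher in HSCs, at 412, 2969 and 2180. Itgb7 (chromosome 15, 102215994 to 102233405), which pairs with the Itga4 and Itgae chains, had 2570, 703 and 669, or 3.66-fold and 3.84-fold lower. Itga4 itself was within 1.16-fold. Itgb2, the beta chain of the leucocyte integrins, had 662, 820 and 637 and so was within 1.24-fold of MPPs in both fractions, unlike its partner gene Itgal. Itgb4, which pairs with the Itga6 chain in epithelia, had 141, 176 and 143. Under the minimum, Itgb6 had 8, 62 and 41 and Itgb8 was listed at 0 in each library.

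**Figure D2:**
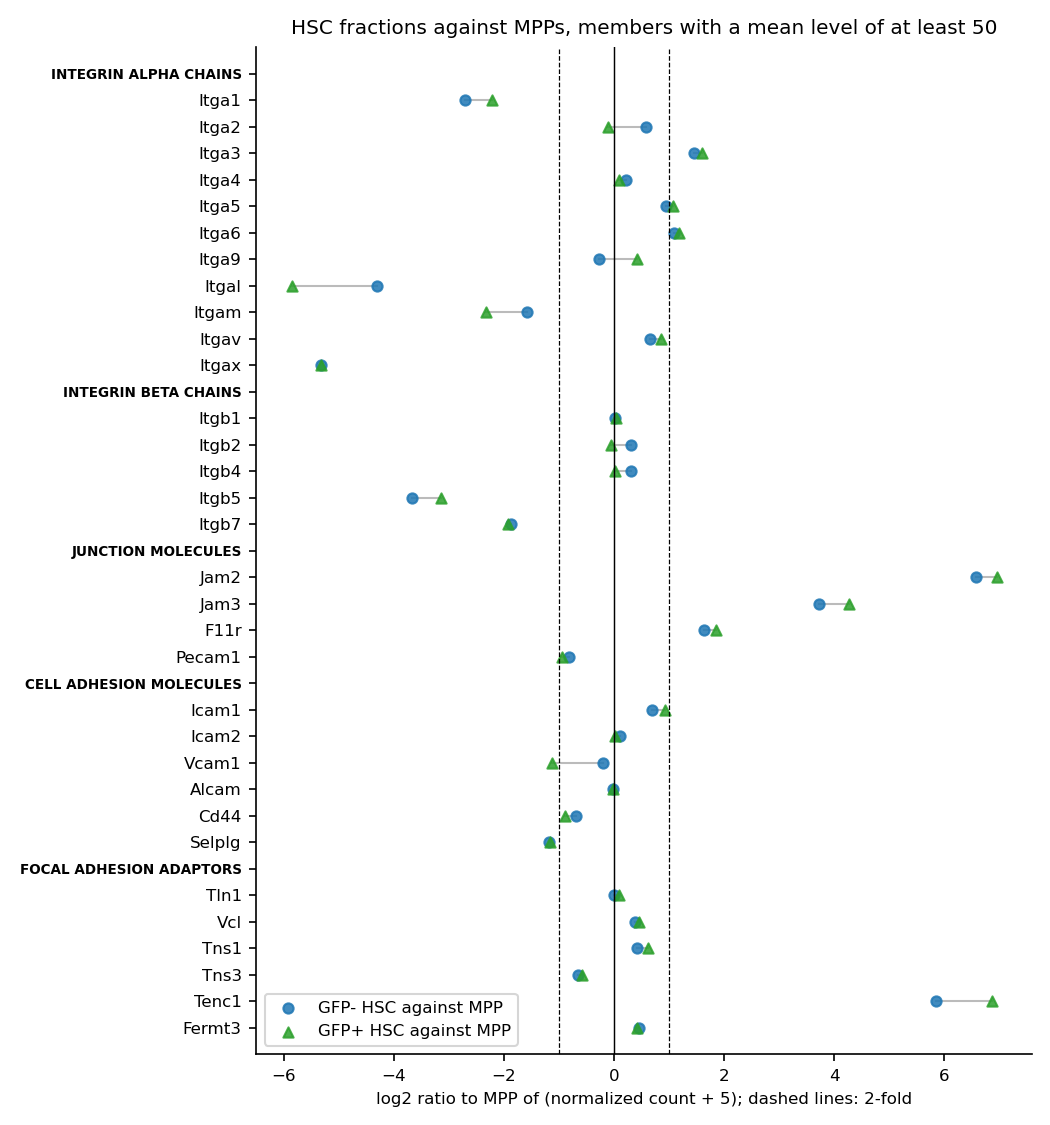
Log2 ratio to MPPs of (normalized count + 5) for the 32 adhesion genes with a mean of at least 50, for GFP- HSCs (circles) and GFP+ HSCs (triangles), with dashed lines at 2-fold. Jam2, Tenc1 and Jam3 lie farthest to the right (6.57, 5.85 and 3.73 for GFP- HSCs) and Itgax, Itgal and Itgb5 farthest to the left (-5.32, -4.30 and -3.66); both points of a gene share the MPP library.

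Divided by the length of the longest GENCODE M21 transcript, levels can be compared between genes. On this scale, in normalized counts per kb, Itgal led the alpha chains in MPPs at 898, which was 31.8% of the 14 alpha chains, followed by Itga6 at 578. In HSCs Itga6 led the 14, at 1234 in the GFP- and 1302 in the GFP+ fraction, or 42.4% and 43.6%. It was followed by Itga5 at 753 and 820. Itgal made up 1.54% and 0.488% there. The summed level per kb of these 14 alpha chains was 2829, 2910 and 2984. The total of the 14 thus differed little between the libraries while its make-up differed. The platelet chain gene Itga2b, left out of the list, had 367, 2046 and 1191 per kb, above Itga6 in GFP- HSCs. The total and the rankings on either scale therefore cover only the 14. Per kb of coding sequence, a scale added after the data were seen, Itgal still led in MPPs (27.2%) and Itga6 in both HSC fractions (32.6% and 33.9%). The second place went to Itga4 instead, at 25.7%, 28.8% and 26.0%.

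Among the 7 beta chains of the list, Itgb1 made up 62.6%, 83.2% and 84.7% of the level per kb. The rest in MPPs was mostly Itgb7 (19.6%) and Itgb5 (12.7%). The summed level per kb of these beta chains was 4881, 3733 and 3699. The platelet chain gene Itgb3, left out of the list, had 71.2, 513 and 377 per kb. Itgal, Itgam and Itgax, all of which pair with the Itgb2 chain, summed to 1231, 140 and 70.7 per kb, beside 223, 276 and 214 for Itgb2 itself. On this scale the alpha chains of the leucocyte integrins in MPPs thus exceeded their beta chain, and in HSCs the beta chain exceeded them.

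**Figure D3:**
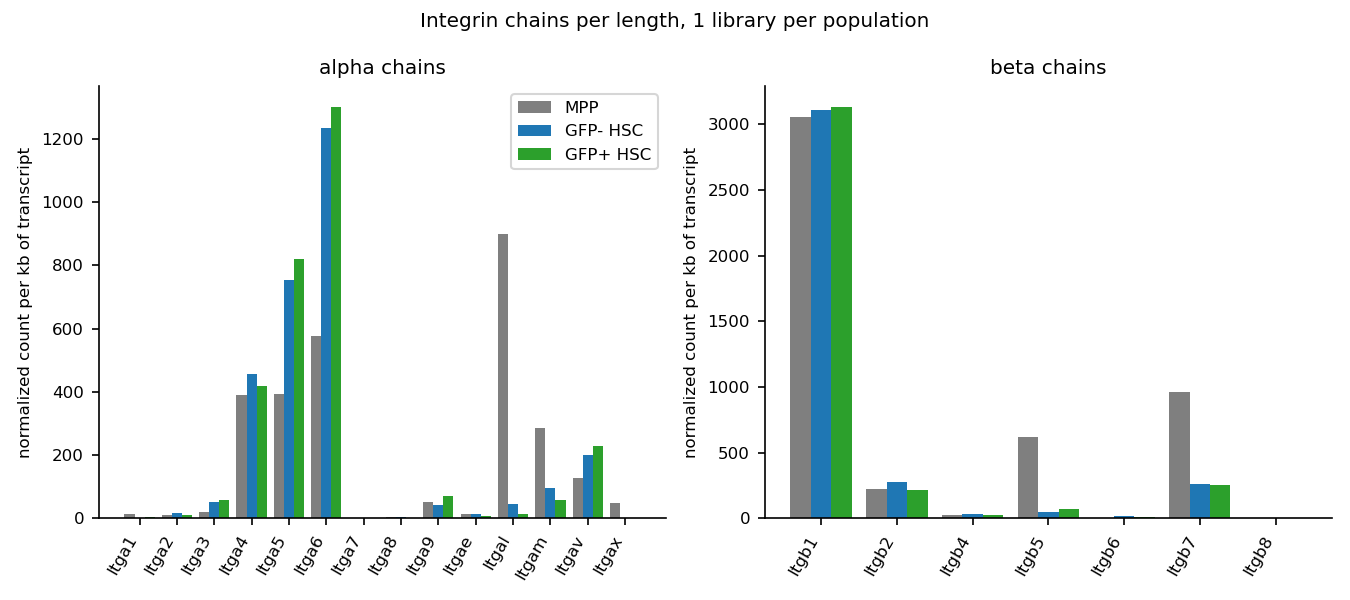
Level of the 14 integrin alpha chains (left) and 7 beta chains (right), as normalized count per kb of the longest transcript, in the 3 libraries, 1 bar per library. Itgal, Itgb5 and Itgb7 are tallest in MPPs, Itga5 and Itga6 in HSCs, and Itgb1 reaches 3056 to 3134 in all 3.

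By median log2 ratio to MPPs, junction molecules differed most among the roles of the list, at 2.68 and 3.06, from only 4 genes. Jam2 passed the minimum through the HSC libraries alone, which fixed its direction. The minimum left out Cdh1 (51, 1 and 0), Cdh2 (0, 11 and 3) and Cdh5 (10, 10 and 3). The rank of this role therefore describes only the genes that passed. Of the 4 past the minimum, 3 were 2-fold or more above MPPs in each HSC fraction, and 0 were as far below. These were the 3 JAM genes. Over all genes, 11.6% lay above and 5.53% below MPPs in the GFP- fraction, and 13.7% and 8.61% in the GFP+ fraction. Jam2 (chromosome 16, 84774123 to 84826380) had 5, 948 and 1231, with log2 ratios to MPPs of 6.57 and 6.95. Jam3 (chromosome 9, 27097384 to 27155421), whose product binds that of Jam2, had 57, 816 and 1185, or 14.3-fold and 20.8-fold above MPPs. An antisense transcript annotated in GENCODE shares 1159 of 3200 exon bases with Jam3, and the libraries do not mark the strand. F11r (chromosome 1, 171437561 to 171464593), which encodes JAM-A, had 1007, 3137 and 3654, or 3.12-fold and 3.63-fold above MPPs. All 3 genes were lowest in MPPs and highest in GFP+ HSCs.

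Per kb of transcript, F11r was the most abundant JAM gene in each library, at 400, 1246 and 1451. Jam3 followed at 29.4, 420 and 610, and then Jam2 at 1.14, 217 and 282. In MPPs the JAM transcripts were thus nearly all F11r (92.9%), and in the HSC fractions F11r made up 66.2% and 61.9%. Jam3 lay above Jam2 in both HSC fractions on this scale, but per kb of coding sequence they were close, at 877 and 981 in GFP- HSCs and at 1274 for each in GFP+ HSCs.

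Cadherins join like cells through calcium-dependent contacts, and the 3 classical cadherin genes of the list were low. Cdh1, which encodes E-cadherin, had 51 in MPPs and 1 in GFP- HSCs and was listed at 0 in GFP+ HSCs. Cdh2, which encodes N-cadherin, was listed at 0 in MPPs and had 11 and 3 in the HSC fractions. Cdh5, which encodes the endothelial cadherin, had 10, 10 and 3. Pecam1, an adhesion molecule of endothelial and blood cells, ran against the JAM genes, at 4053, 2304 and 2098, or 1.76-fold and 1.93-fold lower in HSCs.

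Endothelial cells express the JAM genes too, so their markers were read beside them. The 16 endothelial genes summed to 8397, 18693 and 22790, higher in HSCs, with 14, 16 and 15 of them above 0. Of the 10 past the minimum, 7 were 2-fold or more above MPPs in each HSC fraction: Cldn5, Esam, Flt4, Kdr, Robo4, Sox18 and Tie1. The shares of all genes as far above were 11.6% and 13.7% in the GFP- and GFP+ fractions. Cldn5, Flt4, Kdr and Sox18 lay under the minimum in MPPs and passed through the HSC libraries alone, which fixed their direction. Esam, Robo4 and Tie1 lay above it in each library. Tie1 had the highest mean, at 1665, 7832 and 9696, and stem cells are known to express Tie1 and Esam too. Kdr, which encodes a VEGF receptor, had 18, 444 and 713, and Sox18 had 26, 250 and 343. Egfl7 went the other way, at 4651, 2242 and 2591, and was the highest of the list in MPPs. The 6 genes under the minimum were Stab2, at 8, 45 and 48, and Cdh5, Sox17, Flt1, Lyve1 and Mmrn2, none of which exceeded 14 in any library. The genes named here were chosen after their values were seen. Emcn, at 496, 727 and 849, and Plvap, at 103, 89 and 65, also passed the minimum and stayed under 2-fold. The list thus held genes that were higher in HSCs, genes that were lower and genes near 0 in each library. The part of endothelial cells in the JAM levels was not tested.

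The 6 cell adhesion molecules were all past the minimum, and 0 were 2-fold or more above MPPs in either HSC fraction. Below MPPs by as much were 1 gene in the GFP- and 2 in the GFP+ fraction. The shares of all genes were 11.6% above and 5.53% below in the GFP- fraction, and 13.7% and 8.61% in the GFP+ fraction. Selplg, which encodes the selectin ligand on which leucocytes roll, was lower in both, at 8953, 3932 and 3984, or 2.28-fold and 2.25-fold below MPPs. Vcam1, the ligand of the Itga4 integrins, had 185, 160 and 82, and passed 2-fold only for GFP+ HSCs, at 2.26-fold lower. Cd44, the hyaluronan receptor, had 6984, 4341 and 3779 and stayed within 1.85-fold. Of the ligands of the leucocyte integrins, Icam1 had 1729, 2806 and 3268, up to 1.89-fold higher in HSCs, and Icam2 had 1694, 1833 and 1720. Alcam, which encodes CD166, was the flattest of the group at 1053, 1034 and 1044. Alcam and Icam2 were thus level across the 3 populations, and Selplg and Cd44 were highest in MPPs.

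Among the adaptors, the core of the integrin machinery was abundant in each library, and a single tensin set HSCs apart. Tln1, the talin of blood cells, had 26852, 26842 and 28568. Fermt3, which encodes kindlin-3 of blood cells, had 10604, 14449 and 14166, up to 1.36-fold higher in HSCs. Vcl, which encodes vinculin, had 2887, 3750 and 3958. Exons of these 3 genes overlap those of a gene on the opposite strand, Creb3 for Tln1, Trpt1 for Fermt3 and Ap3m1 for Vcl, with levels of at most 954, 138 and 1194. None of the 3 adaptors reached 2-fold. Per kb of transcript, Fermt3, Tln1, Itgb1 and Selplg were the 4 highest of the 42 genes in each library, with Selplg first in MPPs and Fermt3 first in HSCs. Per kb of coding sequence, F11r exceeded Selplg in GFP- HSCs, at 3486 against 3143. In GFP+ HSCs, at 4060, it exceeded both Selplg (3185) and Tln1 (3748). Paralogs of Tln1 and Fermt3 were low: Tln2 had 30, 21 and 25, and Fermt2, which encodes kindlin-2 of other tissues, had 4, 35 and 73. Fermt2 lay under the minimum and got no ratio; its level was lowest in MPPs and highest in GFP+ HSCs.

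Of the 6 adaptor genes past the minimum, 1 was 2-fold or more above MPPs in each HSC fraction, and 0 were as far below. It was Tenc1 (chromosome 15, 102098475 to 102116401), the tensin gene whose upstream sequence is printed above, with 35, 2300 and 4632. The folds over MPPs were 65.7 and 132. The other 2 tensin genes did not reach 2-fold: Tns1 had 3817, 5079 and 5868, and Tns3 had 1630, 1031 and 1086, up to 1.58-fold lower in HSCs. Per kb of transcript, Tenc1 made up 1.21%, 42.7% and 57.0% of the 3 tensins. Tns1 led in MPPs (63.0%) and Tenc1 in GFP+ HSCs. Per kb of coding sequence, Tenc1 made up 0.783%, 32.4% and 46.0%, and it was still the leading tensin in GFP+ HSCs, beside 43.4% for Tns1.

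**Figure D4:**
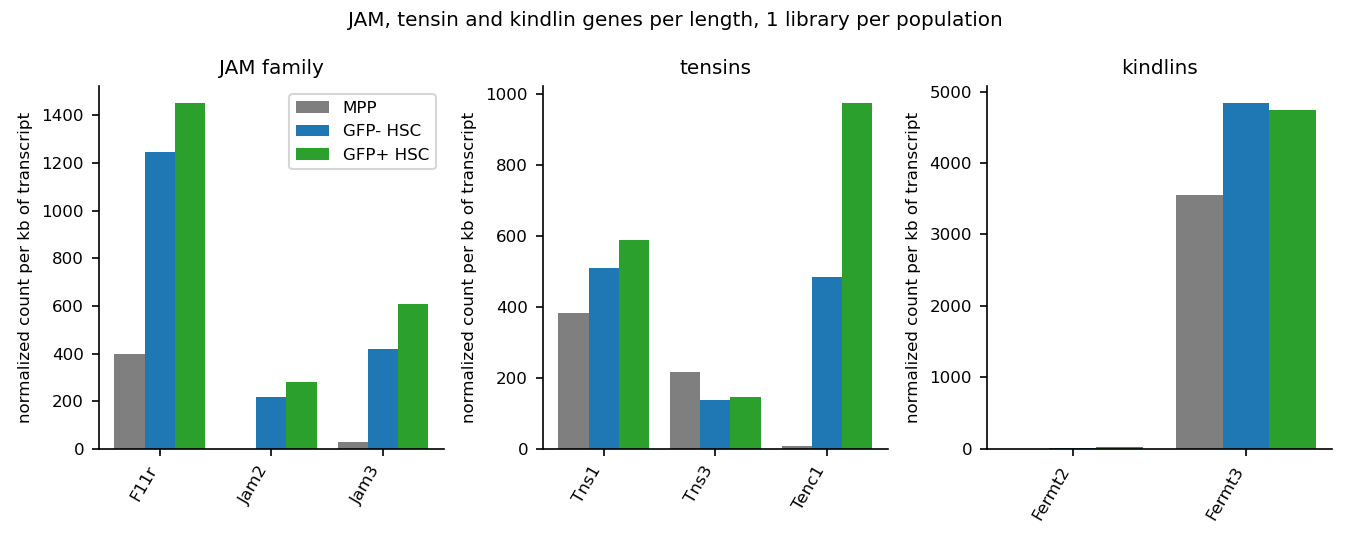
Level of the JAM, tensin and kindlin genes as normalized count per kb of the longest transcript, 1 bar per library. Jam2, Jam3 and Tenc1 are near 0 in MPPs and tallest in GFP+ HSCs, while Fermt3 is high in all 3 libraries and Fermt2 stays at or under 22.2.

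Over the whole set the differences between HSCs and MPPs went both ways. Of the 32 genes past the minimum, 6 lay 2-fold or more above MPPs and 7 as far below in the GFP- fraction, beside the 11.6% and 5.53% of all genes given above. In the GFP+ fraction 7 lay above and 8 below, beside 13.7% and 8.61%. The median log2 ratio of the set was 0.17 and 0.03, with -0.01 and 0.01 over all genes tested. Itgax and Itga1 reached 50 in MPPs alone, and Jam2 and Tenc1 in HSCs alone, so each of these 4 passed through the libraries where it is high. The median size of the ratio, regardless of sign, was 0.69 and 0.93, with 0.37 and 0.45 over all genes. In each comparison with MPPs 12 of the 32 genes lay within 1.5-fold, among them Itgb1, Itga4, Tln1, Fermt3, Alcam and Icam2. By 1.5-fold or more, 10 lay above and 10 below MPPs in each fraction. The shares of all genes were 19.4% above and 13.4% below in the GFP- fraction, and 22.3% and 18.0% in the GFP+ fraction. The set thus held a smaller share of genes within 1.5-fold than all genes did.

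Between the 2 HSC fractions 26 of the 32 genes lay within 1.5-fold, beside 12 in each comparison with MPPs. Past 2-fold, 1 gene was higher in the GFP+ fraction, Tenc1, and 1 was lower, Itgal. Over all genes the shares were 0.41% higher and 0.87% lower. The median log2 ratio of the set was 0.05, with 0.01 over all genes. Its median size was 0.19, with 0.14 over all genes, so the set was no closer between the fractions than genes at large.

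Tenc1 was 2.01-fold higher in GFP+ HSCs, at a log2 ratio of 1.01, just past the threshold, and fell short of it when the libraries were scaled to the same upper quartile (log2 ratio 0.995). Next came Itga9 at 1.61-fold, Itga1 at 1.53-fold from levels of only 17 and 26, Itgb5 at 1.46-fold, Jam3 at 1.45-fold and Jam2 at 1.30-fold. Itgb5, which was highest in MPPs, was thus lowest in the GFP- fraction, while Itgal and Itgam were lowest in the GFP+ fraction.

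Itgal was 3.08-fold lower in GFP+ HSCs, at 76 against 234. Vcam1 was 1.95-fold lower, Itgam 1.69-fold lower and Itga2 1.68-fold lower, and none of these 3 passed 2-fold. Itga8, under the minimum, had 21 in GFP- and 2 in GFP+ HSCs. The remaining genes differed little: Itgb1 had a log2 ratio of 0.01, Alcam 0.01, Selplg 0.02, Fermt3 -0.03 and Itgb7 -0.07. Markers of other cells differed between the fractions in both directions. In GFP- and GFP+ HSCs the monocyte and macrophage sum was 777 and 656, the mast cell and basophil sum 133 and 45, and the neutrophil sum 837 and 1757. Ngp, which had the highest mean of the neutrophil genes, was at 165 and 499. The 13 stromal genes summed to 3796 and 4040, of which Runx2 made up 2497 and 2503. Single stromal genes lay far apart in opposite directions, with Col1a1 at 22 and 294 and Cxcl12 at 187 and 29. The 12 lymphocyte genes summed to 1305 and 1455, and Cd79b had their highest mean. Their part in the differences of Itgal, Itgam and Vcam1 was not tested.

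**Figure D5:**
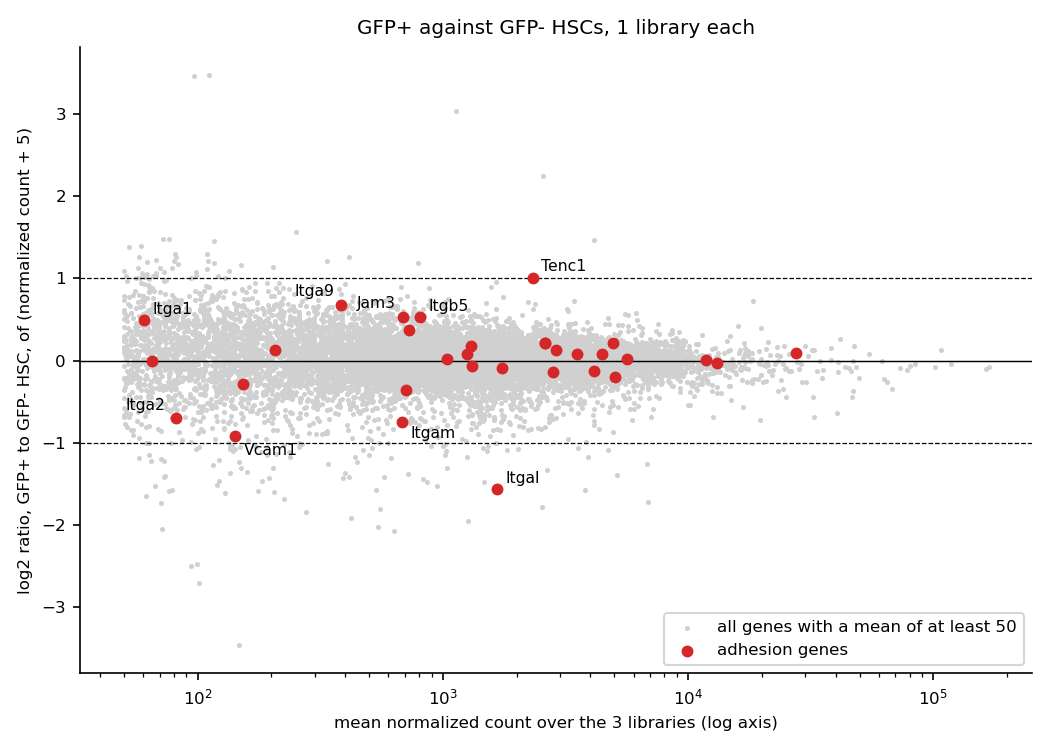
Log2 ratio of GFP+ to GFP- HSCs, of (normalized count + 5), against the mean level over the 3 libraries on a log axis. Grey points are the 11951 genes with a mean of at least 50, red points the 32 adhesion genes, and dashed lines mark 2-fold; Tenc1 (1.01) lies at the upper line and Itgal (-1.56) below the lower one.

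Other genes of adhesion, in lists that hold none of the 42, were counted by the same rules. Over all genes the shares were 11.6% above and 5.53% below MPPs in the GFP- fraction, and 13.7% and 8.61% in the GFP+ fraction. Between the HSC fractions they were 0.41% higher and 0.87% lower. Esam and Cldn5 are also counted among the endothelial genes, and Esam among the other adhesion molecules. Of 22 junction partner genes past the minimum, 10 lay 2-fold or more above MPPs and 1 as far below in the GFP- fraction, with 12 and 1 in the GFP+ fraction. The median log2 ratios were 0.95 and 1.21. They include Esam, an endothelial and stem cell adhesion molecule, at 442, 4564 and 5395, and the tight junction genes Ocln (13, 518 and 767) and Cldn5 (12, 347 and 411). Cldn15 was the 1 lower gene, at 208, 9 and 12. The same list had 0 genes 2-fold apart between the HSC fractions. Junction partners thus lay on the side of the JAM genes.

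Of 37 adhesion signalling genes, 7 lay above and 4 below MPPs by 2-fold or more in the GFP- fraction, with 8 and 4 in the GFP+ fraction and 0 in either direction between the fractions. For GFP- HSCs these shares were 18.9% and 10.8%, beside 11.6% and 5.53% of all genes. For GFP+ HSCs they were 21.6% and 10.8%, beside 13.7% and 8.61%. Ptk2, which encodes focal adhesion kinase, had 367, 1189 and 1564, and its relative Ptk2b had 4100, 8107 and 9422. Kank1, a regulator of talin-bound adhesions, was listed at 0 in MPPs and had 81 and 88 in HSCs. Lower in HSCs was Lpxn, a paxillin relative of leucocytes (212, 40 and 28). Parvg, the parvin of blood cells, had 11966, 6246 and 5552. Of 20 genes of the Rap1 pathway, which activates integrins from inside the cell, 4 lay above and 1 below MPPs in the GFP- fraction, and 3 and 1 in the GFP+ fraction. These were 20% and 5%, and 15% and 5%, beside the same shares of all genes. Rasgrp2, which encodes an activator of Rap1, had 4373, 1539 and 1420, and Rap1gap, which encodes an inhibitor, had 32, 295 and 503. Rap1gap lay under the minimum in MPPs and passed through the HSC libraries alone. Rapgef3 (262, 554 and 801) and Rapgef4 (221, 450 and 548) were also counted as higher in both fractions. Rap1gap2 (90, 204 and 182) was so in the GFP- fraction alone. The activity of the pathway was not tested. For comparison, the platelet pair Itga2b and Itgb3 had 1263, 7032 and 4095 and 412, 2969 and 2180.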

How the data were processed

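RNA of 3 sorted mouse populations was measured, 1 library each. Per the labels' protocols, cDNA was made with a SMART-seq kit for low input, which copies full-length transcripts by PCR without marking the strand. The submitters' processing notes name the tools STAR and DESeq2 and the build mm10. Their versions, the annotation and the counting tool are not stated there. The deposited table holds normalized counts as whole numbers, treated as a score because the authors' size factors, and so the reads, are unknown. No counting interval was therefore computed.

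Columns neg, pos and MPP were read as the GFP- HSCs, GFP+ HSCs and MPPs. Of 23420 rows, 27 with a date in place of a symbol were left out. Log2 ratios used a pseudocount of 5 and genes with a mean of at least 50, and calls a 2-fold threshold. The members, lists and rules were chosen with earlier results of these data known. Members with a mean of at least 50 are all named; from the other adhesion lists, genes were eligible if 2-fold apart in a comparison, as the 4 most abundant and the 3 highest and 3 lowest ratios of GFP- HSCs to MPPs. Of these, a part is printed. Transcript and coding lengths, for all 42 members, came from GENCODE M21 (GRCm38), and positions from RefSeq (GRCm38.p6). Alternatives were other pseudocounts, minimum means, thresholds and scalings and removal of the trend on level. The calculation was tested on simulated data. Python 3.11.15, numpy 2.4.6, pandas 2.3.3, statsmodels 0.14.6 and matplotlib 3.10.9 were used.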

Additional observations from a re-analysis of the deposited data

How the results depend on the processing

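No paired analysis was possible because each population has 1 library and the labels give no shared replicate numbers. Under pseudocounts of 1 and 20, the number of genes called in each direction of each comparison, and the genes themselves, did not differ from those reported. With a minimum mean of 200, the genes below MPPs in the GFP+ fraction numbered 5 in place of 8 and in the GFP- fraction 5 in place of 7, since 27 genes entered. The shares of all genes below MPPs were then 7.66% and 4.37%. With a minimum of 10 the genes lower in GFP+ than in GFP- HSCs were 2 in place of 1, and with none 3, since 38 and 41 genes entered; with none the median log2 ratio of GFP- HSCs to MPPs was 0.024. Scaling to the same upper quartile moved the median of all genes by 0.11 for GFP- HSCs against MPPs and that of the set to 0.28, and left 0 genes higher in GFP+ than in GFP- HSCs, Tenc1 falling just short. Scaling to the same total, to the upper quartile or removal of the trend put Itga5 past 2-fold for GFP- HSCs against MPPs, and the upper quartile also Icam1 for GFP+ HSCs. Signs of small ratios flipped under a scaling for Alcam, Tln1, Itgb1, Itgb2, Itgb4 and Fermt3, none of them called. At 1.5-fold, 10 genes lay above MPPs in the GFP- fraction, beside 19.4% of all genes. By the same threshold 2 were higher and 4 lower in GFP+ than in GFP- HSCs. At 4-fold, 3 lay above and 4 below MPPs in the GFP- fraction, beside 5.04% and 2.01% of all genes. In the GFP+ fraction 3 lay above and 5 below, beside 5.87% and 2.57%. Between the HSC fractions 0 lay as far apart in either direction. Of the ratios of single genes under these alternatives, 0 past 2-fold changed sign, 397 moved by less than 0.1 and 83 by more. The unknown depth leaves the error of low levels, such as 5 for Jam2 in MPPs, unknown.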

Other observations

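Transcripts of some matrix proteins to which integrins bind were present in the sorted libraries. Of 34 matrix genes, 5 were listed at 0 in each library: Vtn, Edil3, Fga, Fgb and Fgg. The part of other cells in these transcripts was not tested. Of 16 matrix genes past the minimum, 6 lay above and 3 below MPPs by 2-fold or more in the GFP- fraction, and 5 and 4 in the GFP+ fraction, while 0 were higher and 1 lower in GFP+ than in GFP- HSCs. Over all genes, 11.6% lay above and 5.53% below MPPs in the GFP- fraction, and 13.7% and 8.61% in the GFP+ fraction. Between the fractions 0.41% of all genes were higher and 0.87% lower. Vwf, which encodes von Willebrand factor, had levels of 157, 7697 and 9964, in the order MPP, GFP- HSC and GFP+ HSC. The laminin chain genes Lama4 and Lama5 had 4, 181 and 162 and 94, 470 and 469, and Thbs1, which encodes a thrombospondin, had 425, 1411 and 922. Lower in HSCs were Spp1, which encodes osteopontin, at 515, 165 and 85, and Emilin2 at 1774, 606 and 293. Lama4 and Npnt (2, 81 and 124) reached the minimum in HSCs alone, and Fbln1 (125, 30 and 40) in MPPs alone. The direction of each was thus fixed by the libraries through which it passed. Of 11 megakaryocyte genes past the minimum, Vwf among them, 10 lay above MPPs by 2-fold or more and 1 below in the GFP- fraction, and 9 and 1 in the GFP+ fraction. Itga2b had 1263, 7032 and 4095 and Itgb3 412, 2969 and 2180, while the lower gene, Ppbp, had 227, 70 and 83. Gp6, under the minimum, had 5 in MPPs and was listed at 0 in HSCs. The part of megakaryocytes in these levels was not tested.

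Of 7 other cadherin genes past the minimum, 4 lay above MPPs by 2-fold or more and 0 below in each HSC fraction. The shares of all genes were 11.6% above and 5.53% below in the GFP- fraction, and 13.7% and 8.61% in the GFP+ fraction. The desmosomal genes Dsg2 and Dsc2 had 66, 394 and 696 and 3, 99 and 121. The protocadherin gene Pcdh7 had 91, 1064 and 928, and Cdh23 had 11, 210 and 205. Dsc2 and Cdh23 lay under the minimum in MPPs and passed through the HSC libraries alone, which fixed their direction. Dsg2 and Pcdh7 lay above it in each library. Among 19 other adhesion molecules past the minimum, 7 were higher and 4 lower in each HSC fraction. Selp, which encodes P-selectin, had 823, 3331 and 2570. The sialomucin genes Podxl and Cd34 went opposite ways, at 75, 1007 and 1235 and at 42578, 10319 and 6240.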
